A study of Ovis aries with 16 samples.

Results

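The 140 array features described here were those whose signal followed AGRP, the agouti-related peptide transcript, most closely across the 8 hypothalami of fetal sheep that had only a sham occlusion. They were chosen by measured values. Of 15008 distinct features on the array, 12937 passed a filter for signal well above background (4 or more of 16 arrays), and 12905 of these had a value on every sham array and were ranked by Pearson r with the brightest AGRP feature. The first 150 were taken, and 10 of them, the paired features of AGRP, NPY, GAL, POMC and GHRH, were dropped. The 140 that remained are called members below. Their correlation over the sham arrays is the rule itself and is given as a description with no test.

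The study measured RNA of the whole fetal hypothalamus, 1 fetus per array, in 4 groups of 4 chronically catheterized fetuses aged 124 to 128 days, with term at 147 days. The control group had a sham occlusion and no other treatment. The BCO group had the brachiocephalic artery, which supplies the fetal head, occluded for 10 min with 50 min of recovery. The estradiol group received estradiol at 250 ug/day for 5 days and a sham occlusion, and the estradiol+BCO group received the same estradiol and the occlusion. Blood was drawn from every fetus through its catheters, and the hypothalamus was collected 1 h after the occlusion or sham period began. The sham arrays are the 4 control and the 4 estradiol arrays, and the occluded arrays are the other 8.

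AGRP is made by neurons of the arcuate nucleus, at the base of the hypothalamus beside the median eminence and the pituitary stalk. These neurons also make NPY, and both peptides promote feeding, AGRP by blocking the melanocortin receptors on which the products of neighbouring POMC neurons act. ISL1 is a LIM-homeodomain transcription factor known for its role in specifying arcuate neurons, and NPY1R is a receptor for NPY. In bulk tissue of this kind, fewer cells of a type and less RNA per cell cannot be told apart.

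The 75th percentile of the signal was 2021 to 2904 units over the 16 arrays, and 77.3 to 86.4% of features were well above background. Correlation between arrays over the tested features was 0.970 to 0.990. Values are log2 signal minus the array's own 75th percentile, so 0 is the level of that percentile. The tissue label was checked against neuropeptides of the hypothalamus: 14 of the 30 listed were measured, GAL, SST, POMC and OXT among them, and 13 of these 14 were well above background on at least 1 array of every group (GHRH was not in the BCO group). The arrays came from 2 slides, each with 2 arrays of every group: replicates 1 and 2 of each group on slide 1 and replicates 3 and 4 on slide 2. The labels give 1 fetus per array, so the replicate spread includes the differences between animals, and the number of arrays limits the precision.

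Every feature is a probe of 60 bases, and the probes that carry the results below are printed here 5′ to 3′ as deposited. They show what was hybridised for each named transcript, and for unnamed transcripts the sequence is the identity. Capitals mark the longest run, of at least 12 bases, shared with the array's other probe of the same transcript. The AGRP, NPY1R and ISL1 pairs are shifted copies of each other, the SLIT2 pair shares 25 bases, and the CGA and BRS3 pairs lie on separate stretches.
AGRP A_70_P002722: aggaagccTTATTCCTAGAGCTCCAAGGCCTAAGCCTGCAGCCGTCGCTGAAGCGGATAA
AGRP A_70_P002721: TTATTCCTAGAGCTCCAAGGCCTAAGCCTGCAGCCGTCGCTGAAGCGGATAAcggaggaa
ISL1 A_70_P049671: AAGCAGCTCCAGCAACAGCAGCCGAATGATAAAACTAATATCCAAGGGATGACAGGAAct
ISL1 A_70_P049672: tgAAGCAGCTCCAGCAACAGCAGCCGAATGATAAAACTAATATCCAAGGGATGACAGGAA
NPY1R A_70_P017141: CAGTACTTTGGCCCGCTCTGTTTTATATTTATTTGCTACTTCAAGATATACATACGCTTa
NPY1R A_70_P017142: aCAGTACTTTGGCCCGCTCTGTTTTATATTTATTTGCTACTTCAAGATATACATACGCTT
BRS3 A_70_P030116: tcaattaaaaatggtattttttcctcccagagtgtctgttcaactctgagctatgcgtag
BRS3 A_70_P030117: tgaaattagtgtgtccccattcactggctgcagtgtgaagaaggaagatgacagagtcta
TSHR A_70_P039326: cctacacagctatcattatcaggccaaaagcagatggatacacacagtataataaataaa
beta-thyrotropin A_70_P017161: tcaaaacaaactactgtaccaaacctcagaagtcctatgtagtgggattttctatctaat
CGA A_70_P039422: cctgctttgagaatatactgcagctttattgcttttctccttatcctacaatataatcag
CGA A_70_P039421: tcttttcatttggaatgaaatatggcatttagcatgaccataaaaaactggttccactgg
SLIT2 A_70_P024356: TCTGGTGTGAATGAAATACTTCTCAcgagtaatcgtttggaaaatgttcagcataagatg
SLIT2 A_70_P024357: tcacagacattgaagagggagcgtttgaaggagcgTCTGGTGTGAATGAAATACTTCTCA
A_70_P066321: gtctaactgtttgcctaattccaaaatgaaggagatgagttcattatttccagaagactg
A_70_P049141: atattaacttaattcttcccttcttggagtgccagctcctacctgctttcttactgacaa
A_70_P043661: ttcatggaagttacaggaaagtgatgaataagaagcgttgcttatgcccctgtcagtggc
A_70_P040386: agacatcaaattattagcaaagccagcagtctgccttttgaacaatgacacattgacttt
A_70_P017541: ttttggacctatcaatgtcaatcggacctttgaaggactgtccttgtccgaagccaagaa

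Of the members, 22 carried a gene name, for 17 genes, and 118 had none and are called by their probe name. Genes of hypothalamic neurons were ISL1, NPY1R and BRS3, an orphan receptor of the bombesin family linked to energy balance. Genes of the thyrotropin and gonadotropin system were TSHR, the thyrotropin receptor, and CGA, the alpha subunit shared by thyrotropin and the gonadotropins. Genes of the extracellular matrix and its turnover were TIMP1, a metalloproteinase inhibitor, and FBLN1, fibulin 1, with SLIT2, a secreted guidance cue. Others were WT1, a zinc finger transcription factor, PAEP, a secreted lipocalin, ARG2, a mitochondrial arginase, CALML4, a calmodulin-like protein, EEF1A1, a translation elongation factor, HSPA5, a chaperone of the endoplasmic reticulum, TNFRSF1A, a receptor for tumour necrosis factor, and LOC443344, named in the files as an estrogen-dependent oviduct protein. A further member without a matched name, A_70_P017161, is called beta-thyrotropin (TSHB) in the array's own annotation; it was singled out after its values were seen. A_70_P039591 carried a name that disagreed with its accession and is left under its probe name.

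AGRP itself set the pattern. Its level was -1.19, -1.89, -0.55 and -0.53 in the 4 controls and -0.14, 0.92, -4.16 and -4.88 in the 4 estradiol fetuses. Estradiol replicates 3 and 4 thus lay well below the other sham arrays, and estradiol replicate 2 was the highest. The members followed these arrays: in 103 of 140 (73.6%) estradiol replicates 3 and 4 were the lowest pair of sham arrays, against 3.85% of all tested features, and in 86 (61.4%) estradiol replicate 2 was the highest, against 11.8%. These shares describe the rule and are no test of it.

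**Figure D1:**
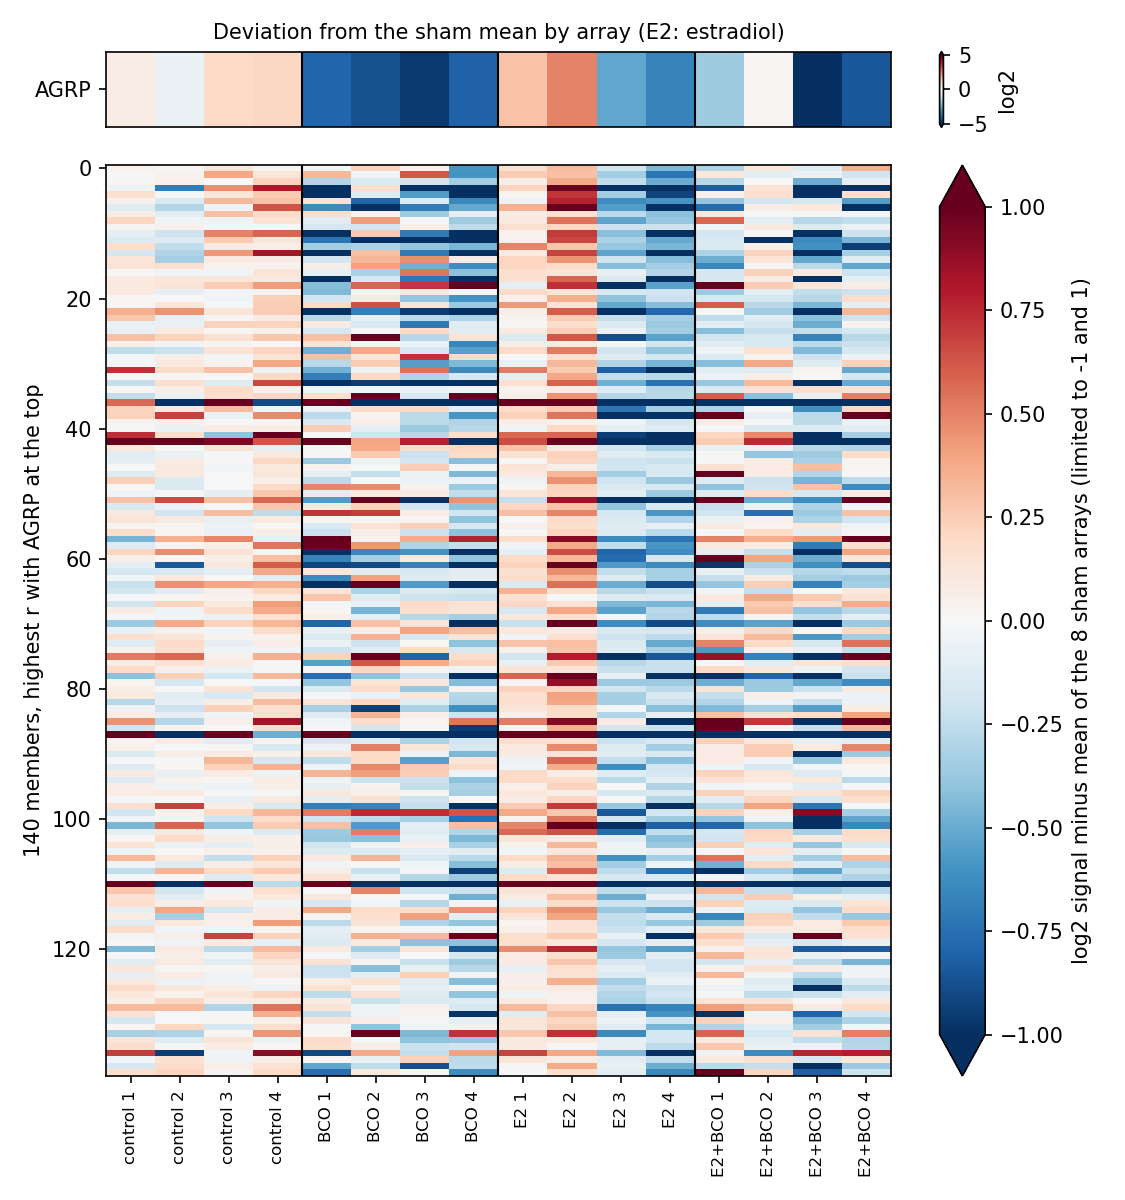
Heat map of the 140 members by array, as log2 signal minus the mean of the 8 sham arrays (colour limited to -1 and 1), ordered by r with AGRP from the top, with AGRP above on its own scale. The estradiol replicate 3 and 4 columns are below the sham mean in 139 and 140 of the 140 members, while in the occluded columns blue and red mix, with 112 members below the sham mean in BCO replicate 4 and 64 in BCO replicate 2.

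The correlation ranged from 0.763 to 0.965, with a median of 0.808 and a median Spearman rho of 0.762. The highest value, 0.965, belonged to the unnamed A_70_P066321, and the highest among named members was 0.932 for TSHR. Just inside the boundary were A_70_P065971 at 0.764, NPY1R at 0.763 and A_70_P007931 at 0.763. Just outside were A_70_P028871, A_70_P037461 and A_70_P029796, each at 0.762, so nothing separated members from the next features in rank. Members changed far less than AGRP: the median slope was 0.099 log2 units per log2 unit of AGRP, and the median range over the sham arrays was 0.74 log2 units, against 0.63 for all tested features. In the sham arrays 16 members (11.4%) ranged over more than 2 log2 units, against 6.66% of all tested features. The CGA features (9.92 and 10.39) and A_70_P017161 (9.47) were widest.

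Membership rested largely on the low pair of estradiol arrays. Over the 6 sham arrays without them, the members' median r with AGRP was 0.59, 127 of 140 (90.7%) were above 0 and 81 (57.9%) above 0.5, against 43.2% and 12.8% of all tested features. These 6 arrays are among the 8 used for the choice, so the shares remain a description. When the ranking itself was repeated on the 6 arrays, 12 of the 140 members were chosen again. TSHR kept an r of 0.93 over the 6 arrays, and TIMP1 and FBLN1 had 0.96 and 0.94, while the BRS3 features had 0.11 and 0.13.

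The second probe of a transcript gave a measurement that the rule did not require. Of the members, 19 had another tested feature of the same transcript, and for 10 of them that feature was a member too (both features of ISL1, BRS3, CGA, CALML4 and LOC443344). The others agreed less well. The second feature had an r with AGRP over the sham arrays of 0.74 for WT1, 0.73 for FBLN1, 0.71 for ARG2 and 0.68 for TIMP1. It was 0.33 for SLIT2, 0.29 for HSPA5 and 0.18 for NPY1R. The NPY1R probes, which share 59 of their 60 bases, differed this much over sham ranges of 0.86 and 0.82 log2 units.

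The 8 occluded arrays entered the choice through the background filter alone, not the ranking, and the members' correlation with AGRP was weaker there. AGRP was -5.53, -5.90, -6.34 and -5.59 in BCO and -3.31, -1.45, -6.57 and -5.80 in estradiol+BCO. The members' median r over these arrays was 0.21, against -0.09 for all tested features. It was above 0 in 100 of 140 members (71.4%), against 41.3% of all tested features, and above 0.5 in 27 (19.3%), against 5.33%. Without estradiol+BCO replicates 1 and 2, the only occluded arrays with AGRP above -5, the median was 0.02, against -0.11 for all tested features, and 74 members were above 0. With the slide means removed it was 0.03, against -0.04. The arrays of a slide share whatever differed between slides, so these r values have no p.

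**Figure D2:**
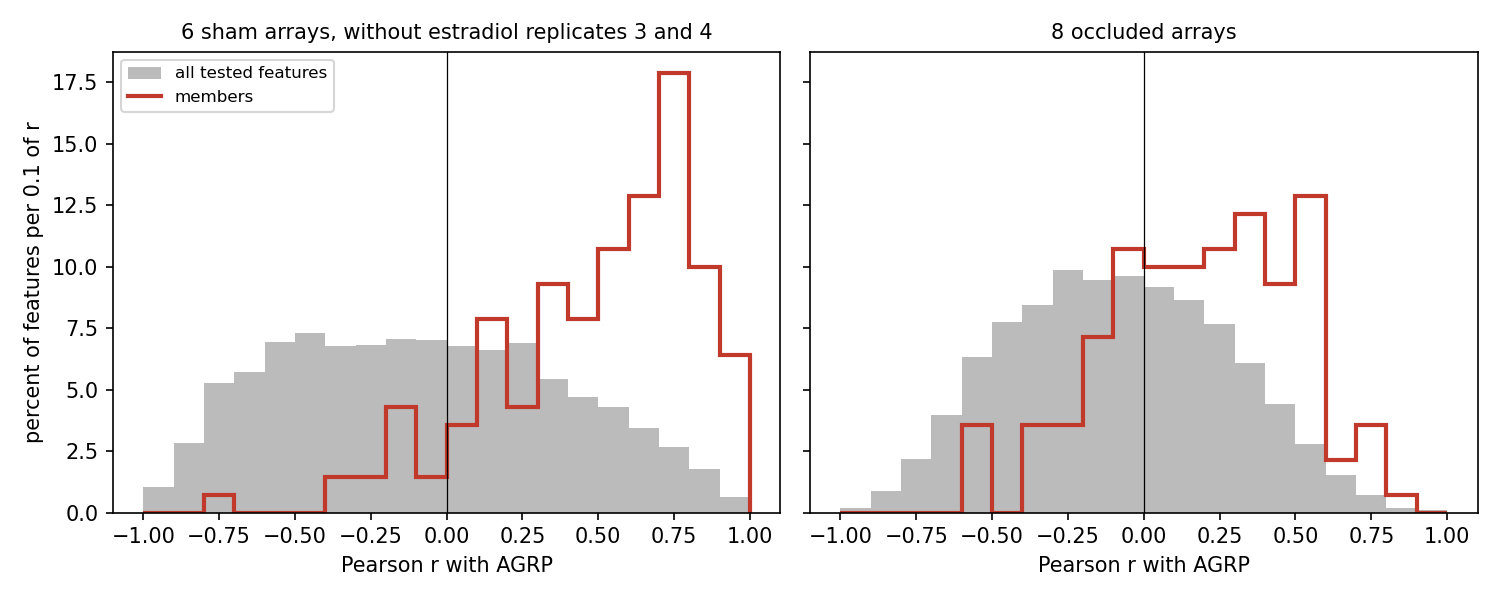
Histograms of Pearson r with AGRP for all tested features (grey) and for the 140 members (red outline), as percent of features per 0.1 of r, over 6 sham arrays (left) and over the 8 occluded arrays (right). The members' median is 0.59 on the left, where the arrays were part of the choice, and 0.21 on the right, where they were not ranked on.

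The members with the highest r over the occluded arrays were all unnamed. They were A_70_P045096 at 0.85, A_70_P017731 at 0.78, A_70_P049141 at 0.75, A_70_P045216 at 0.74 and A_70_P019366 at 0.71. Without estradiol+BCO replicates 1 and 2 these became -0.04, 0.00, -0.06, 0.10 and -0.27. A_70_P044836, at 0.70, kept an r of 0.84 over the 6 arrays. Among named members ARG2 (0.56), TSHR (0.54), NPY1R (0.54) and HSPA5 (0.51) were above 0.5. The second NPY1R probe, with 59 of 60 bases in common, had -0.18, and A_70_P066321, first among members in the sham ranking, had -0.04. The dropped peptides, brightest feature of each, had an r with AGRP of 0.97 (NPY), 0.94 (GAL), 0.88 (POMC) and 0.86 (GHRH) over the sham arrays and 0.59, 0.71, 0.86 and 0.90 over the occluded arrays.

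In the occluded arrays most members were slightly lower than in the sham arrays, and no member passed the test. The sham arrays of this comparison also ranked the members, so shares of members against all features are a description. For the average of BCO minus control and estradiol+BCO minus estradiol, 100 of 140 members had a lower mean (71.4%), against 51.2% of all tested features. The members' median difference was -0.09 log2 units, against -0.00 for all features, and 100 members (71.4%) lay within 0.25 of 0, against 83.0% of all features. The members ranged from -3.92 (CGA) to 0.64 (A_70_P062616), and 17 (12.1%) were lower by more than 0.5, against 3.05% of all features. The 5th percentile was -0.86 for members and -0.39 for all features, and the 95th was 0.32 and 0.31.

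By limma with Benjamini-Hochberg adjustment over the 12937 features, 0 members and 0 features in all (0.0%) had an adjusted p under 0.05, and the smallest adjusted p was 0.457. At an unadjusted p under 0.05 there were 983 features in all. Among members 15 (10.7%) were lower at that level, against 3.49% of all features, and 2 (1.43%) were higher, against 4.11%. The ranked sham arrays enter these p-values too, so nothing is read from the members' shares. Of the members 4 were well above background on fewer than 4 occluded arrays; among the other 136, 96 were lower, with a median of -0.08 and 14 at an unadjusted p under 0.05. AGRP differed by -3.51 ± 0.87 (SE), at an adjusted p of 0.457. Of the 22 named members 20 were lower, with a median of -0.16 and 6 at an unadjusted p under 0.05. Of the 118 unnamed members 80 were lower, with a median of -0.07 and 9 at that level.

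**Figure D3:**
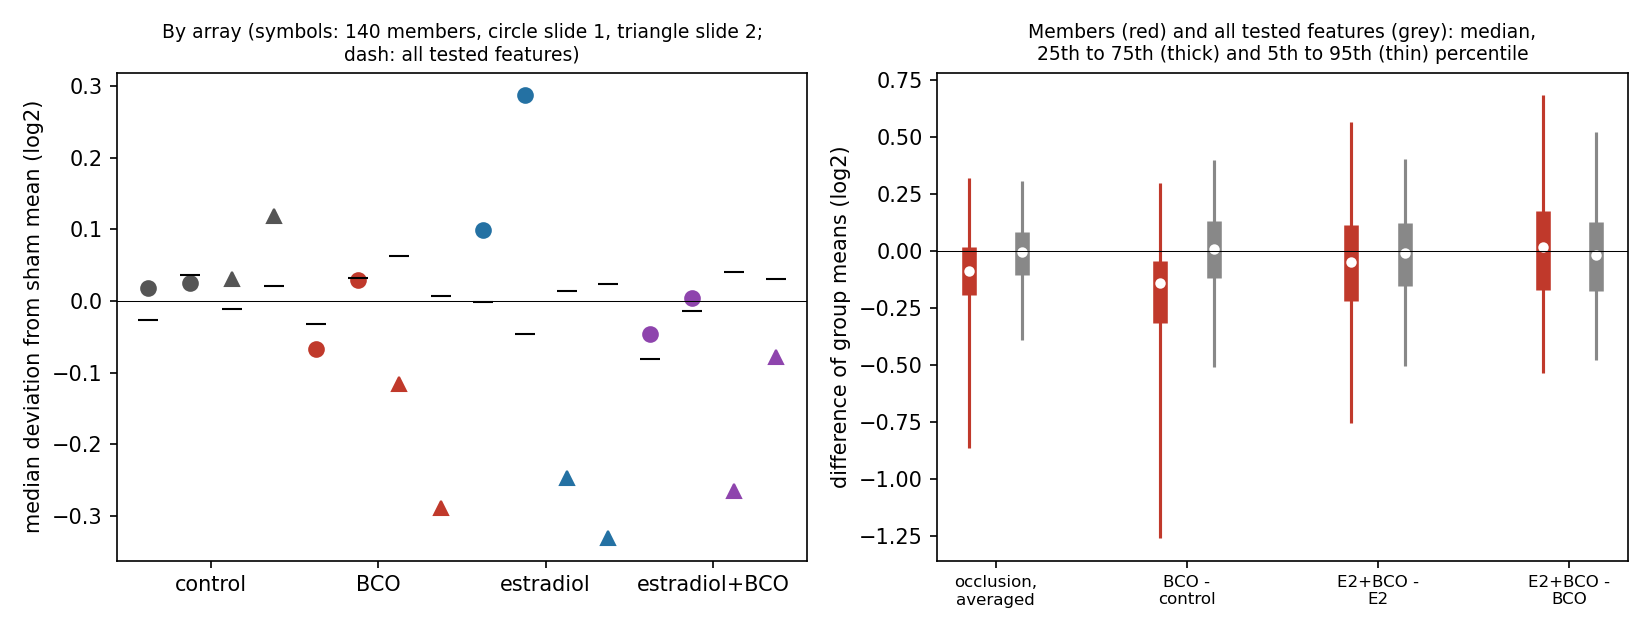
Left, median deviation of the 140 members from their sham mean on each array (circles slide 1, triangles slide 2), with that of all tested features as a dash, in log2 units. Right, differences of group means for members (red) and all tested features (grey) as median and 25th to 75th and 5th to 95th percentiles. The members' medians lie between -0.29 and 0.03 in the occluded arrays and between 0.02 and 0.12 in the controls. In the estradiol arrays they lie between -0.33 and 0.29, a spread that the rule favoured.

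On single arrays the members' median deviation from their sham mean was 0.02, 0.02, 0.03 and 0.12 in the controls and 0.10, 0.29, -0.25 and -0.33 in the estradiol group. It was -0.07, 0.03, -0.12 and -0.29 in BCO and -0.05, 0.00, -0.26 and -0.08 in estradiol+BCO. Among the occluded arrays only BCO replicate 2 lay among the controls. The others lay below every control and below estradiol replicates 1 and 2. BCO replicate 4 and estradiol+BCO replicate 3 lay between estradiol replicates 3 and 4, the arrays in which the rule favoured low members. The remaining occluded arrays lay above that pair. AGRP in contrast was lower in every BCO array than in every sham array. BCO replicate 2, with AGRP at -5.90, had the members' median at 0.03, and BCO replicate 4, with AGRP at -5.59, had it at -0.29.

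Among genes of hypothalamic neurons, ISL1, BRS3 and NPY1R had lower means in the occluded groups, with sham and occluded arrays overlapping. ISL1 (A_70_P049671) was -2.06, -2.17, -1.46 and -1.38 in the controls, -3.07, -1.70, -2.66 and -4.61 in BCO, -1.93, -1.26, -2.38 and -3.05 in estradiol and -2.15, -1.96, -3.39 and -2.18 in estradiol+BCO. BCO replicate 4 was the lowest array, and BCO replicate 2 lay among the controls. The averaged occlusion difference was -0.75 ± 0.37 (SE), with a limma adjusted p of 0.671, and -0.86 ± 0.45 for the second probe. It was -0.37 on slide 1 and -1.14 on slide 2, and -0.49 without BCO replicate 4.

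BRS3 (A_70_P030116) was -3.47, -3.38, -3.71 and -3.58 in the controls, -4.82, -4.51, -4.78 and -5.99 in BCO, -3.77, -3.22, -4.89 and -4.62 in estradiol and -3.85, -4.18, -5.79 and -3.50 in estradiol+BCO. Every BCO array lay below every control, and estradiol replicates 3 and 4 lay among the BCO arrays. Averaged over estradiol, the occlusion difference was -0.85 ± 0.33 (SE), with a limma adjusted p of 0.578. The second probe, on a separate stretch of the transcript, gave -0.64 ± 0.25, and within slides the first gave -0.88 and -0.82.

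NPY1R (A_70_P017141) was -3.23, -2.87, -2.98 and -2.90 in the controls, -3.57, -3.30, -3.93 and -3.30 in BCO, -3.07, -2.68, -3.12 and -3.54 in estradiol and -3.31, -3.28, -4.48 and -3.42 in estradiol+BCO. All BCO arrays lay below all controls by a small step, and estradiol+BCO replicate 3 was the lowest of the 16. The averaged occlusion difference was -0.53 ± 0.18 (SE), with a limma adjusted p of 0.524. The second probe, which is no member, gave -0.27 ± 0.11, with an adjusted p of 0.609.

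**Figure D4:**
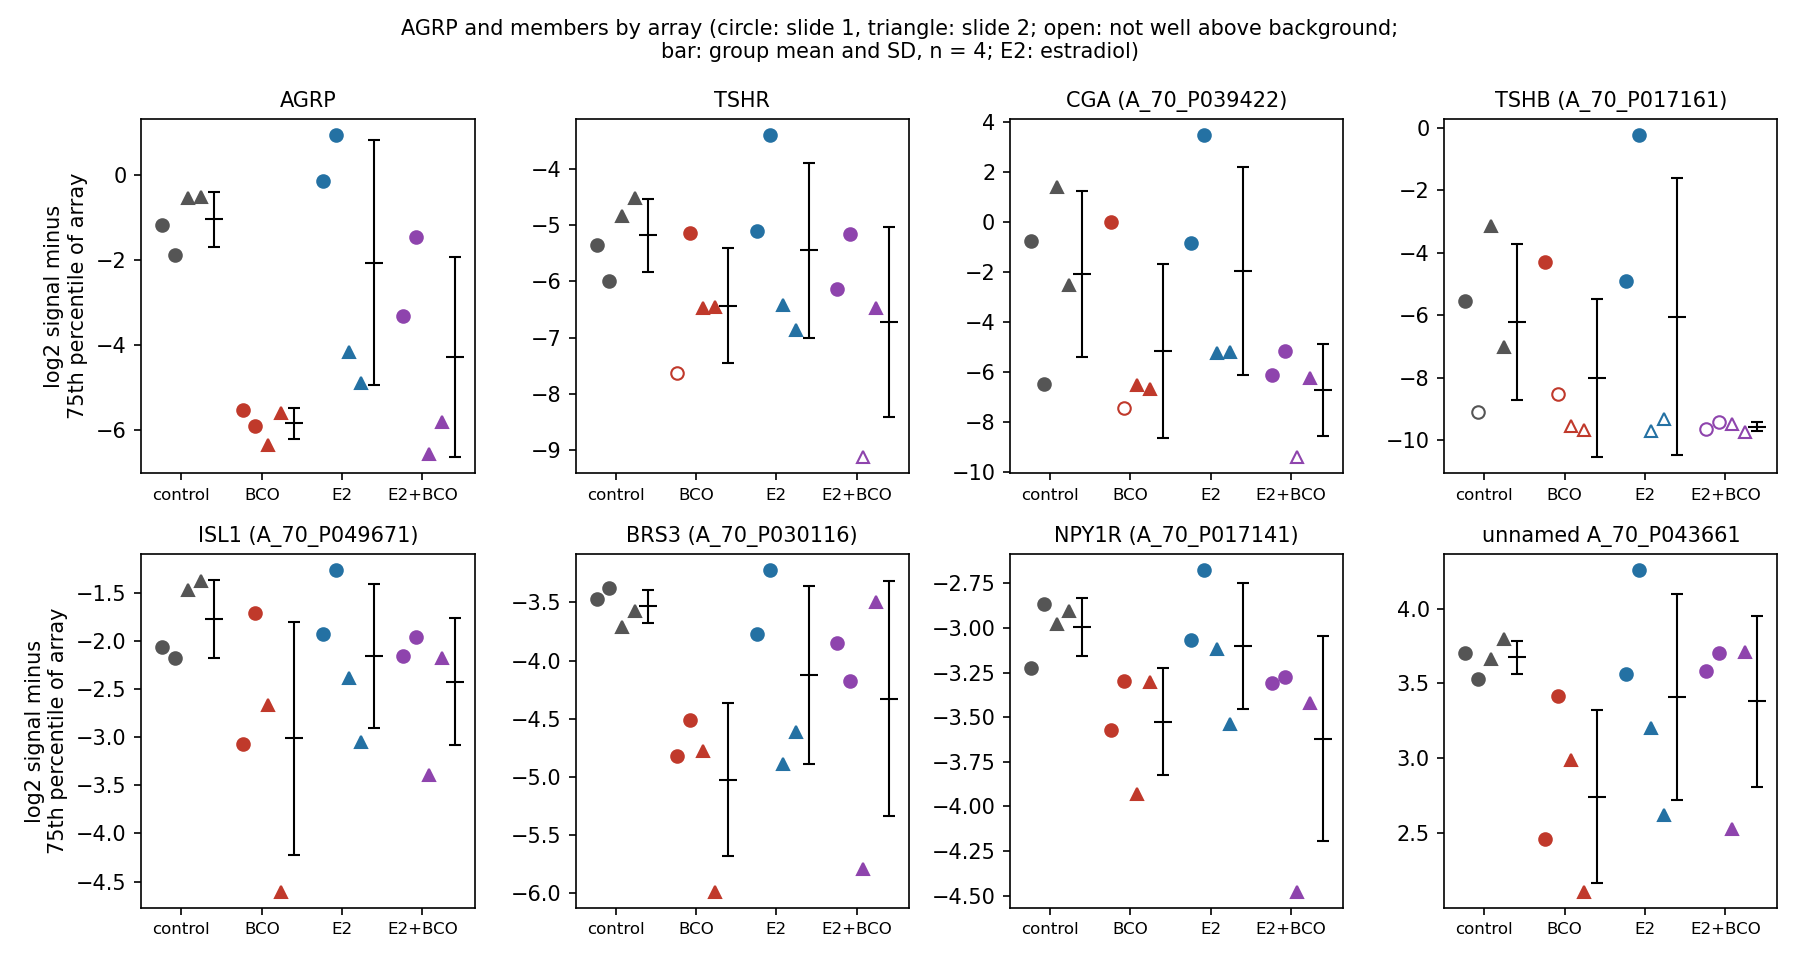
AGRP and 7 members by array, as log2 signal minus the array's 75th percentile (circles slide 1, triangles slide 2, open symbols not well above background), with group means and SD, n = 4. BRS3 and NPY1R show BCO arrays below all controls, while CGA and beta-thyrotropin vary over several log2 units within groups.

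Genes of the thyrotropin system had the widest spread of all members. CGA and the beta subunit of thyrotropin are known as products of the pituitary, including the pars tuberalis that covers the median eminence. CGA (A_70_P039422) was -0.74, -6.46, 1.40 and -2.51 in the controls, 0.01, -7.45, -6.51 and -6.68 in BCO, -0.84, 3.45, -5.22 and -5.20 in estradiol and -6.10, -5.14, -9.38 and -6.25 in estradiol+BCO. All 4 groups held values below -5, and BCO replicate 1 stood with the high sham arrays. With occlusion it differed by -3.92 ± 1.52 (SE), with a limma adjusted p of 0.576, and the second probe gave -3.92 ± 1.57. The lowest signal well above background, averaged over the arrays of a group, was -7.28 in BCO and -7.39 in estradiol+BCO. BCO replicate 2 at -7.45 and estradiol+BCO replicate 3 at -9.38 lay below these levels, so the size of the difference is uncertain. Within slides the first probe gave -3.52 and -4.32.

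The feature called beta-thyrotropin (A_70_P017161) was -5.56, -9.09, -3.16 and -7.03 in the controls, -4.29, -8.54, -9.54 and -9.67 in BCO, -4.92, -0.25, -9.71 and -9.31 in estradiol and -9.66, -9.43, -9.48 and -9.73 in estradiol+BCO. It was well above background in 3 controls, 2 estradiol arrays, 1 BCO array and no estradiol+BCO array, and the high arrays were those high in CGA. Against estradiol its mean was at least 2.54-fold lower in estradiol+BCO. For this bound the mean of all 4 estradiol arrays was set against a floor on each estradiol+BCO array. The floor was the lowest signal well above background there or the feature's own signal, whichever was higher. The bound leaned on estradiol replicate 2 at -0.25, an array in which the rule favoured high features. Estradiol replicates 3 and 4 were not above background themselves. No exact occlusion difference is given, since 7 of the 8 occluded values were not above background.

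TSHR was -5.35, -6.00, -4.84 and -4.51 in the controls, -7.64, -5.14, -6.48 and -6.46 in BCO, -5.10, -3.40, -6.42 and -6.86 in estradiol and -6.13, -5.16, -9.13 and -6.47 in estradiol+BCO. BCO replicate 1 and estradiol+BCO replicate 3 were not well above background, and the estradiol group held both the highest array of all and a pair below every control. Averaged over both estradiol states, it differed by -1.27 ± 0.60 (SE), with a limma adjusted p of 0.669. It was -0.60 with normexp background correction.

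Measured genes of the pituitary, CGA and the dropped POMC included, did not share one pattern. Of 8 measured genes of a pituitary list (PRL, CGA, LHB, FSHB, POMC, GHRHR and TRHR among them, brightest feature of each) the median r with AGRP over the sham arrays was 0.03, from -0.64 for LHB to 0.88 for POMC. Their summed linear level, in multiples of the array's 75th percentile, was 5.85 to 11.7 in the controls, 4.87 to 6.82 in BCO, 6.73 to 19.1 in estradiol and 5.45 to 8.19 in estradiol+BCO. Each of the 8 was well above background on at least 1 array of every group. With occlusion 6 of 8 were lower, with a median of -1.02, and 0 passed the limma test at an adjusted p under 0.05. The part of pituitary RNA in the members' values was not tested.

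SLIT2 had a dim and a brighter probe. The dim member, A_70_P024356, was -7.28, -7.27, -6.88 and -7.03 in the controls, -7.87, -8.62, -8.18 and -8.59 in BCO, -7.10, -6.47, -7.46 and -7.65 in estradiol and -7.29, -8.21, -7.77 and -7.60 in estradiol+BCO. All BCO arrays lay below all sham arrays, but no BCO array was well above background, nor were control replicates 1 and 2 and 3 of the 4 estradiol+BCO arrays. Against control it was at least 1.12-fold lower in BCO, computed as above, and no exact difference is given because most occluded values were not above background.

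The second SLIT2 probe, A_70_P024357, is no member and was well above background on all 16 arrays. It was -6.12, -5.54, -5.77 and -5.77 in the controls, -6.40, -6.16, -6.15 and -6.39 in BCO, -5.97, -5.35, -5.75 and -5.96 in estradiol and -6.17, -6.04, -6.33 and -5.93 in estradiol+BCO. Every BCO array lay below every sham array, and the estradiol+BCO arrays overlapped them. With occlusion it differed on average by -0.42 ± 0.11 (SE), with a limma adjusted p of 0.457, and -0.22 with normexp background correction.

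The remaining named members differed little with occlusion. TIMP1 differed by -0.15, FBLN1 by -0.07, EEF1A1 by -0.16, ARG2 by -0.12, TNFRSF1A by -0.05 and HSPA5 by -0.05. The features of LOC443344 differed by -0.12 and -0.08 and those of CALML4 by -0.11 and -0.09. PAEP and WT1 were higher on average, with differences of 0.49 ± 0.28 (SE), at a limma adjusted p of 0.724, and 0.33. Both PAEP and WT1 were lowest among the sham arrays in estradiol replicates 3 and 4, a pattern the rule favoured. PAEP was -4.41, -3.41, -3.29 and -2.52 in BCO, where BCO replicate 4 was the highest of all arrays.

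Among unnamed members A_70_P049141 had one of the larger differences. It was -3.34, -2.93, -3.22 and -2.44 in the controls, -4.15, -4.05, -4.76 and -5.14 in BCO, -2.94, -2.51, -3.58 and -3.85 in estradiol and -3.48, -2.78, -4.10 and -3.61 in estradiol+BCO. All BCO arrays lay below all sham arrays, while the estradiol+BCO arrays lay mostly among the sham arrays. The averaged occlusion difference was -0.91 ± 0.24 (SE), with a limma adjusted p of 0.457, and -0.68 and -1.13 within slides.

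A_70_P040211 differed by -0.79 ± 0.26 (SE), with a limma adjusted p of 0.515, and was between -3.02 and -2.33 in all 8 occluded arrays, a range that held 3 of the 8 sham arrays (control replicate 2 and estradiol replicates 3 and 4). A_70_P065246 differed by -0.43 ± 0.13, with an adjusted p of 0.478. In the other direction A_70_P062616 differed by 0.64 ± 0.27 and A_70_P035531 by 0.44 ± 0.19, both dim, and with normexp background correction these became 0.02 and -0.09. A_70_P066321, which had tracked AGRP best over the sham arrays, differed by -0.04 ± 0.14.

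Over the 8 occluded arrays the mean r between members was 0.14, against 0.02 between all tested features, and 6336 of 9730 pairs (65.1%) were above 0. The closest pairs beyond probes of a single gene were among A_70_P043661, A_70_P040386 and A_70_P017541, singled out after their values were seen, with r of 0.99, 0.99 and 0.98. Their printed probes share at most 6 bases in a row. ISL1 followed them with r of 0.92, 0.94 and 0.88, and BRS3 with 0.91, 0.91 and 0.87.

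A_70_P043661 was 3.70, 3.53, 3.66 and 3.80 in the controls, 2.46, 3.42, 2.99 and 2.11 in BCO, 3.57, 4.26, 3.20 and 2.62 in estradiol and 3.59, 3.70, 2.53 and 3.71 in estradiol+BCO. The low arrays were BCO replicates 1 and 4, estradiol+BCO replicate 3 and estradiol replicate 4, the same arrays that were among the lowest for ISL1. In occluded against sham arrays it differed by -0.48 ± 0.25 (SE), with a limma adjusted p of 0.694. A_70_P040386 was -1.04, -0.19, -0.74 and -1.50 in BCO and 0.06 to 0.09 in the controls, and its difference was -0.59 ± 0.24. With AGRP these transcripts had an r of 0.53, 0.58 and 0.59 over the occluded arrays, which placed them among the 27 of 140 members above 0.5. AGRP was low on every BCO array, while these transcripts varied among them.

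Differences within each estradiol state share arrays with the rule, which favoured features high in the controls and low in estradiol replicates 3 and 4, and are given as values only. For BCO against control 113 members were lower, with a median of -0.14 against 0.01 for all features, and 0 members were called (0.0% of all features, with 928 at an unadjusted p under 0.05 by limma). In 19 members, SLIT2, NPY1R and both BRS3 features among them, all BCO arrays lay below all controls. The share of all features was 1.79%, and since the rule used the control arrays nothing is read from the members' count against it. For estradiol+BCO against estradiol 80 members were lower, with a median of -0.05, from -0.23 on slide 1 to 0.11 on slide 2, and 0 were called by limma (0.00773% of all features).

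The difference of means for estradiol+BCO against BCO used no sham array. The spread behind its SE and p-values was fitted over all groups, the ranked sham arrays included. For that reason nothing is read from the members' unadjusted counts below. With only the groups compared in the fit, 0 members were called. Of the members, 65 of 140 were lower (46.4%), against 53.5% of all features, and the median was 0.02 against -0.02. No member was called by limma (0 of 140, and 0.0% of all features, with 1222 at an unadjusted p under 0.05), and the smallest adjusted p of a member was 0.294. Unadjusted, 9 were higher (6.43%), against 3.61% of all features, and 2 lower (1.43%), against 5.84%. All estradiol+BCO arrays lay above all BCO arrays in 5 members (3.57%), against 1.67% of all features, and these were A_70_P017731, A_70_P071441, A_70_P045096, A_70_P005906 and A_70_P009281. All estradiol+BCO arrays lay below all BCO arrays in 3 members (2.14%), A_70_P055321, A_70_P011976 and A_70_P064386, against 2.57% of all features.

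A_70_P049141 was higher in estradiol+BCO than in BCO by 1.03 ± 0.34 (SE), with a limma adjusted p of 0.352, from the array values above. A_70_P009281 was -0.16, -0.37, -0.02 and -0.22 in BCO and 0.10, 0.20, 0.13 and 0.02 in estradiol+BCO. The groups did not overlap, and the difference was 0.31 ± 0.09 (SE), with a limma adjusted p of 0.301. A_70_P011976 went the other way, with -3.28, -3.45, -2.85 and -3.38 in BCO and -3.71, -3.55, -3.78 and -3.63 in estradiol+BCO, a difference of -0.43 ± 0.12. The second BRS3 probe differed by 0.71 ± 0.35. For the interaction, the difference between the occlusion differences with and without estradiol, no member was called by limma, against 0.00773% of all features; the smallest adjusted p of a member was 0.473 and their median was 0.08, from -0.18 on slide 1 to 0.43 on slide 2.

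The slide moved with the members. The low sham pair, estradiol replicates 3 and 4, were the estradiol arrays of slide 2, and all 140 members were higher on slide 1 within the estradiol group, a pattern the rule favoured. Outside the arrays used by the rule, 101 of 140 members (72.1%) were higher on slide 1 within BCO, and 101 within estradiol+BCO, against 48.0% and 41.5% of all features. In the controls, 54 were. For AGRP, slide 1 minus slide 2 was -0.999 in the controls, 0.25 in BCO, 4.91 in estradiol and 3.80 in estradiol+BCO.

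In the 8 occluded arrays 15 members were lower on slide 2 at an unadjusted p under 0.05 by limma, against 311 of 12937 features in all (2.4%). At an adjusted p under 0.05 the slides differed in 267 features, and 0 of these were members. The averaged occlusion median of the members was -0.10 on slide 1 and -0.07 on slide 2. What the slides stand for beyond the hybridisation is not given in the labels, and its part in the members' correlation was not tested.

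Genes that share biology with AGRP were mostly lower with occlusion, and few of them were members. Of 14 measured hypothalamic neuropeptides 13 were lower with occlusion, with a median of -1.06, and 8 were lower at an unadjusted p under 0.05 by limma. The shares of all features were 51.2% and 3.49%. These counts include AGRP itself and the dropped NPY, GAL, POMC and GHRH, which followed AGRP over the sham arrays. Apart from the dropped peptides none of them was a member, and NPVF lay just outside the boundary (r of 0.75). Of 13 measured genes of the melanocortin and appetite pathway 12 were lower, with a median of -0.27 and 4 at that level. AGRP, NPY and POMC are counted in this list as well, and NPY1R alone had a member feature. Of 4 measured transcription factors of hypothalamic nuclei all were lower, with a median of -0.87, and ISL1 alone was a member. Among these 4, NR5A1 was well above background on no BCO array and on 2 control arrays, so the size of its difference is uncertain. By limma 0 genes of these lists passed at an adjusted p under 0.05.

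Markers of other cell types were checked on the same arrays. Over the sham arrays the median r with AGRP was -0.02 for 5 measured genes of astrocytes and tanycytes, 0.01 for 4 of microglia and leukocytes and -0.27 for 6 of endothelial and mural cells. With occlusion 4 of 5, 4 of 4 and 1 of 6 of these were lower, with medians of -0.05, -0.18 and 0.18. The 2 measured genes of choroid plexus and ependyma (TTR, and IGF2, which is also in the fibroblast list) were both lower, with a median of -0.91, while HBB of erythrocytes differed by 0.67 and NEUROD1 of thalamus and telencephalon by -0.48. The median r was 0.44 for 7 genes of fibroblasts and meninges, among them the member FBLN1, and 6 of these 7 were lower with occlusion, with a median of -0.27. Their summed linear level was 72.7 to 86.5 in the controls and 58.8 to 85.4 in BCO, 74.8 to 93.8 in estradiol and 73.1 to 100.1 in estradiol+BCO, overlapping in all groups. The part of tissue outside the arcuate nucleus in the members' values was not tested.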

How the data were processed

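RNA of 16 fetal sheep hypothalami (500 ng, RNA integrity numbers 7.4 to 8.4 per the labels) was hybridised in 1 color to an Agilent ovine array, design 019921. Per the file headers, the authors' scanner files came from Feature Extraction, version 10.1.1.1, run under protocol GE1-v5_10_Apr08, and hold the processed signal as an intensity after background subtraction, with flags of other kinds for spots above background and outlier spots. The deposited value table holds log2 values, which matched the log2 processed signal minus the array median. Further upstream steps are not given in the sources used here.

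Outlier spots were set to missing (2 to 36 per array; 83 tested features and 0 members touched), spots of a probe were averaged as log2 values and each array's 75th percentile was subtracted. Names were updated through RefSeq (assembly ARS-UI_Ramb_v3.0, names only), which left 13352 of 15008 features unnamed and a further 8 with conflicting identifiers. Sequences are the array's own probes. Models with the 4 groups were fitted to 16 arrays with limma 3.58.1 in R 4.3.3, 2-sided, with Benjamini-Hochberg adjustment over 12937 features at 0.05. The fit was tested on simulated data. The values of 1 named gene are not reported here.

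The members, lists and tests were chosen with earlier results of these data known. Values by array were given for named members among those with the highest r or lowest p, though not for all of these. They were also given for unnamed members with a low p in a comparison. A_70_P017161, A_70_P043661 and A_70_P040386 were singled out after their values were seen. Alternatives were other normalizations (quantile, median centring, normexp with an offset of 50, the value table), other filters, slide and replicate blocks, single slides and single arrays left out; 4 more, among them leaving out estradiol replicates 3 and 4 or estradiol+BCO replicates 1 and 2, were added after seeing the data. Same-numbered arrays did not all deviate together from their group means (r of -0.03 to 0.27), so the numbers were not used as pairs.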

Additional observations from a re-analysis of the deposited data

Results flagged for a closer look

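Of 88 groups of 4 arrays examined for the features described by array, 6 held an array standing apart by Dixon's test at its 95% critical value; chance flags about 1 in 20 groups. CGA was 0.011 in BCO replicate 1, against -7.45 to -6.51 in the other BCO arrays. In estradiol+BCO replicate 3, ISL1 was -3.39 (others -2.18 to -1.96), NPY1R was -4.48 (others -3.42 to -3.28) and A_70_P043661 was 2.53 (others 3.59 to 3.71). PAEP was -2.83 in estradiol+BCO replicate 1 (others -3.92 to -3.74), and A_70_P062616 was -5.36 in estradiol+BCO replicate 4 (others -6.35 to -6.22). The reasons were not tested.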

How the results depend on the processing

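The choice of members depended on the ranking. Of the 140 members, 71 were chosen again with Spearman rho, 61 with slide means removed, 65 within the first 75 features, 71 on normexp-corrected values and 12 without estradiol replicates 3 and 4. Leaving out 1 sham array kept 45 to 104. The members' median r with AGRP over the occluded arrays was 0.248 with group means removed, 0.0277 with slide means removed, 0.017 without estradiol+BCO replicates 1 and 2, and 0.177 to 0.275 with 1 array left out.

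The members' median occlusion difference was -0.12 to -0.05 with 1 array left out and -0.20 without the low sham pair (estradiol replicates 3 and 4). In the 5 comparisons tested, 0 members were called under any alternative run. Over all features, BCO against control gave 14 calls on slide 2 alone, 3 with only the groups compared and 0 to 6 with 1 array left out. Estradiol+BCO against BCO gave 13 on slide 2 alone and 0 to 5 with 1 left out. Estradiol+BCO against estradiol gave 0 with median centring, the value table, either slide alone, only the groups compared or without the low sham pair, and 0 to 1 with 1 array left out; its member median was -0.23 on slide 1, 0.11 on slide 2, -0.30 without that pair and -0.14 to 0.06 with 1 left out. The interaction gave 0 with quantile normalization, median centring, the value table, no filter, either slide alone or without the low pair, 3 with slide as a block and 0 to 3 with 1 left out. Its member median was -0.18 on slide 1, 0.43 on slide 2 and -0.13 without the low pair, and that of estradiol against control 0.16, -0.38 and 0.14. A_70_P035531 reversed to -0.095 with normexp; the other 25 named results kept their sign. The causes were not tested.

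With the replicate number as a block, member medians did not move, estradiol+BCO against estradiol gave 0 calls and the interaction gave 3.

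Low signal limits SLIT2, TSHR and beta-thyrotropin, which were near background on several arrays and of which TSHR shrank to -0.60 with normexp correction. It also limits the lowest values of CGA in the occluded groups. With 4 fetuses per group and 2 per slide, the spread between animals limits every comparison.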
